A study of Mus musculus with 2 samples.

Results

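The genes described here are those of the cytosolic ribosomal proteins, chosen by name alone from the 31053 genes of the deposited matrix. All 83 symbols of the Rpl and Rps families, including Rplp0, Rplp1, Rplp2 and Rpsa and leaving out symbols marked as pseudogenes, were taken: 51 of the large subunit and 32 of the small subunit. Of these, 80 held at least 50 unique molecular identifiers (UMIs, each marking 1 captured RNA molecule) over the classes compared in each library. The other 3, Rpl10l, Rpl39l and Rpl3l, held 0, 20 and 64 UMIs in all barcodes. Mice with a Rel deletion in myeloid cells (LysM-cre x RelloxP/loxP) and wild-type mice carrying the same Cre (LysM-cre x Rel+/+) were injected with B16F10, a mouse melanoma line, and cells sorted for CD45, a surface protein of white blood cells, were taken 2 weeks later. The Rel protein, c-Rel, is an NF-κB family transcription factor, and LysM-cre is active mainly in macrophages, monocytes and neutrophils, so lymphocytes and the injected tumour cells are not targeted. Each genotype is 1 library of 5 pooled tumours, all digested with collagenase IV and DNase I and passed through Percoll before the sort. Barcodes end in 1 or 2, and no label says which ending is which genotype; the text therefore speaks of library 1 and library 2 and compares no genotypes.

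A ribosome joins a small subunit, which reads the messenger RNA, to a large subunit, which forms the peptide bonds, and nearly every ribosomal protein is present as 1 copy in each ribosome. The messages of these genes begin with a run of pyrimidines (the 5′ terminal oligopyrimidine, or TOP, motif), through which their translation is controlled together by the mTOR pathway. In single-cell data these messages are among the most abundant, and lymphocytes are known for a high share of them while mature neutrophils, which hold little RNA, are known for a low share.

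The 2 libraries held 7688 and 10564 barcodes with 49129318 and 73507228 UMIs. Barcodes of 500 or more UMIs, 200 or more genes and at most 10% mitochondrial UMIs were retained, 426 and 562 barcodes with the highest doublet scores were left out, and 5958 of 6763 retained barcodes in library 1 and 8195 of 8966 in library 2 were placed in 1 of 8 classes from marker genes. Most of them were melanoma-like (3848 and 6360 barcodes), with 3.26 and 2.64 UMIs per 1000000 (CPM) of Ptprc, the gene of CD45, against 854 and 652 CPM in T-like barcodes. The immune classes were T-like (665 and 399 barcodes), NK-like (205 and 53), B-like (132 and 5), dendritic-like (38 and 26), monocyte-like (579 and 681), macrophage-like (413 and 645) and neutrophil-like (78 and 26). B-like barcodes are given as values and entered no call, because library 2 held only 5. In each of the other 7 classes all fixed markers of the class were detected in both libraries, and none of its 10 leading genes was a marker of another class. The same markers set the classes, so this is no independent check. Own markers made up 0 of the 10 leading genes in melanoma-like and 1 in NK-like and in dendritic-like barcodes. They made up 3 in monocyte-like, 5 in neutrophil-like and 6 in T-like and macrophage-like barcodes. Kit, also a mast cell marker, was among the 10 of dendritic-like barcodes. The other 4 mast cell markers read had 0 UMIs in that class in both libraries. Erythroid RNA (5 markers, all detected) summed to 1209 CPM in T-like, 1377 in monocyte-like and 1487 in macrophage-like barcodes in library 1, and to at most 113 CPM in every other class and library; its part in the results was not tested. The libraries shared 3609 barcode sequences, and 45.8% and 22.1% of melanoma-like barcodes had a namesake in the other library with more than 10 times as many UMIs. With these barcodes left out every call on shares and on single genes given below was the same.

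The starts of 4 genes are shown, because these genes moved apart from the rest of the family in the results that follow. Each sequence is 30 bases of the coding strand around a RefSeq transcript start on GRCm38.p6, and capitals mark its longest run of C and T; of 2 windows of Rps27l the more upstream is shown.
Rps27 (chr3:90213634-90213663, minus strand): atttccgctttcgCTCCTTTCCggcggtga
Rps27l (chr9:66946071-66946100, plus strand): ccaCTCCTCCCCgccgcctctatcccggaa
Rpl7l1 (chr17:46782642-46782671, minus strand): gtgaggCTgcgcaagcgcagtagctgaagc
Rps9 (chr7:3704026-3704055, plus strand): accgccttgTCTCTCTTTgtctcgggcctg
The run was 9 bases long in Rps27, Rps27l and Rps9 and 2 bases long in Rpl7l1. It can lie before or after the start, so its length does not show that a message begins with it. In Rps27l the run lies before the annotated gene start (chr9:66946086). Of the 4 genes shown, only Rps27 held CTTTC or CTTCC on the coding strand within 20 bases of the start. RefSeq windows were found for 63 of the 83 genes, and 29 of them (46.0%) held CTTTC or CTTCC on the coding strand within 20 bases of the start, against 16.1% of 19407 genes. On the other strand the same letters were found in 23.8% of the ribosomal protein genes and 16.5% of all. CCGGAAG, the core of a site for ETS factors, was found on either strand of the 300-base window in 41.3% of the ribosomal protein genes and 12.1% of all genes; its reverse complement contains CTTCC, so the searches overlap. These matches describe the letters present and not a site in use.

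The 83 genes supplied 21.6% of all UMIs in library 1 and 23.0% in library 2. T-like barcodes had the highest share in library 1, with 31.5% of their summed UMIs (95% exact binomial interval 31.4 to 31.6) and 33.0% in library 2 (32.8 to 33.1), against 21.8% and 23.3% in melanoma-like barcodes. This was 1.446 and 1.417 times the melanoma-like share. In NK-like barcodes the share was 28.5% and 34.6%, or 1.31 and 1.49 times the melanoma-like share (1.20 and 1.51 times as a mean over barcodes, which is no longer a call), and B-like barcodes held 31.1% and 35.8%. T-like and NK-like barcodes changed order between the libraries, with T-like over NK-like ratios of 1.11 and 0.954. Intervals here and below cover counting error only; with 1 library per genotype there is no test, and a class was called higher or lower when its share was at least 25% above or 20% below that of melanoma-like barcodes in both libraries.

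**Figure D1:**
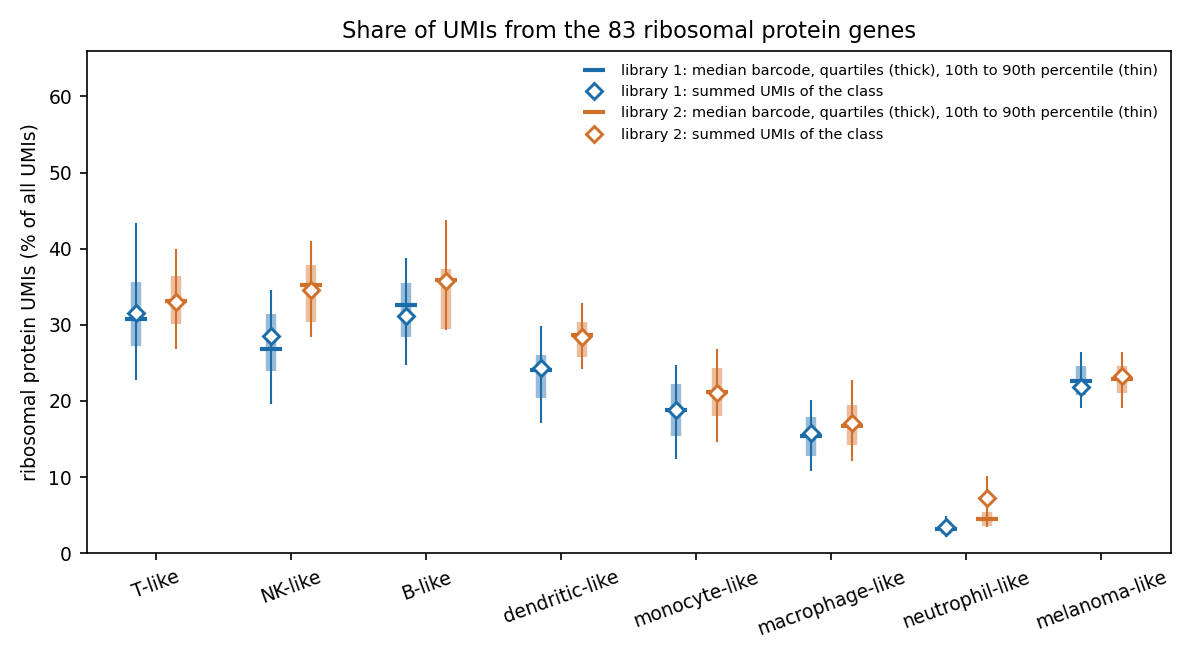
Share of UMIs from the 83 ribosomal protein genes (percent of all UMIs, y axis) in each class, library 1 in blue and library 2 in orange. Diamonds are summed UMIs, dashes median barcodes, thick bars quartiles and thin bars the 10th to 90th percentiles; lymphoid classes lie highest, neutrophil-like barcodes far below every other class, and library 2 is above library 1 in each class.

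Myeloid classes formed a descending order that was the same in both libraries. Dendritic-like barcodes held 24.3% and 28.5%, monocyte-like barcodes 18.8% and 21.0%, macrophage-like barcodes 15.8% and 17.1%, and neutrophil-like barcodes 3.48% (3.32 to 3.64) and 7.19% (6.81 to 7.59). Dendritic-like over monocyte-like ratios were 1.29 and 1.36, and monocyte-like over macrophage-like ratios were 1.19 and 1.23. Set against melanoma-like barcodes, macrophage-like barcodes were called lower at 0.724 and 0.734 times, and neutrophil-like barcodes at 0.160 and 0.309 times. Dendritic-like (1.11 and 1.22 times) and monocyte-like barcodes (0.861 and 0.902 times) did not reach the rule, with counting intervals of 1.10 to 1.24 and 0.857 to 0.907 over both libraries. T-like barcodes held 9.06 and 4.59 times the share of neutrophil-like barcodes.

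The plot of shares by class also shows the spread over barcodes. The median barcode held 3.21% and 4.54% in the neutrophil-like class, and its 90th percentile in library 2 was 10.1%; the summed share there, 7.19%, stood above the upper quartile of 5.37%. By median barcode, T-like barcodes held 30.8% and 33.1% and melanoma-like barcodes 22.6% and 22.9%. A neutrophil-like barcode held a median of 21 and 25 ribosomal protein UMIs, against 381 and 351 in a T-like barcode. A window of 500 to 1500 UMIs narrows the range of depth, and copied barcode sequences were left out of it. There the share was 32.4% and 33.7% in T-like, 3.48% and 5.83% in neutrophil-like and 21.7% and 22.1% in melanoma-like barcodes. The melanoma-like values rest on 64 and 108 barcodes, a shallow part of a class with medians of 3790 and 9975 UMIs.

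Other measures moved with the low neutrophil-like share. The 10 most abundant other genes, among them S100a8 and S100a9 (the subunits of calprotectin), took 35.9% and 33.8% of neutrophil-like UMIs, against 7.27% and 7.01% in melanoma-like barcodes for their own 10. With those genes left out, the share was 5.42% and 10.9% in neutrophil-like barcodes and 23.5% and 25.02% in melanoma-like barcodes, a ratio of 0.231 and 0.434. Mitochondrial genes took 1.23% and 1.74% in neutrophil-like and 3.88% and 4.10% in melanoma-like barcodes. Melanoma marker RNA (Pmel, Mlana, Dct and Tyrp1) stood at 2.11% to 4.03% of the melanoma-like level in immune classes of library 1 and at 5.93% to 7.23% in library 2, except for B-like barcodes of library 2, which held none. The share was higher in library 2 in all 8 classes; the part of this RNA in that difference was not tested.

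Large-subunit genes supplied 57.9% of ribosomal protein UMIs in melanoma-like barcodes in both libraries and 56.5% and 57.4% in macrophage-like barcodes. In T-like, NK-like, dendritic-like and monocyte-like barcodes they supplied between 53.9% and 55.5%, and in neutrophil-like barcodes 50.9% and 52.5%. B-like barcodes were similarly low, at 52.2% and 51.8%, the latter from 5 barcodes. The family was led in summed UMIs by 3 genes, Rplp1 (a stalk protein that helps recruit elongation factors) with 982526 UMIs, Rpl32 with 866967 and Rpl8 with 773673. UMIs tag the 3′ end of a message, so they are not divided by gene length, and they compare classes for 1 gene better than genes with each other.

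To find genes that moved apart from the family, the CPM of each gene in a class was divided by the mean CPM of the other 6 classes and then by the median of that ratio over the 80 genes. This departure leaves out what the whole family shares. The median ratio itself was 1.63 and 1.51 in T-like, 1.49 and 1.59 in NK-like, 1.19 and 1.23 in dendritic-like, 0.906 and 0.866 in monocyte-like, 0.751 and 0.709 in macrophage-like, 0.135 and 0.264 in neutrophil-like and 1.07 and 1.004 in melanoma-like barcodes. Most genes followed the family: between 68 and 78 of 80 lay within 1.5-fold of the median in each class and library, except in neutrophil-like barcodes, where 42 and 60 did. Departures of at least 2-fold in both libraries were made by 8 pairs of a gene and a class, listed class by class in the paragraphs that follow.

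**Figure D2:**
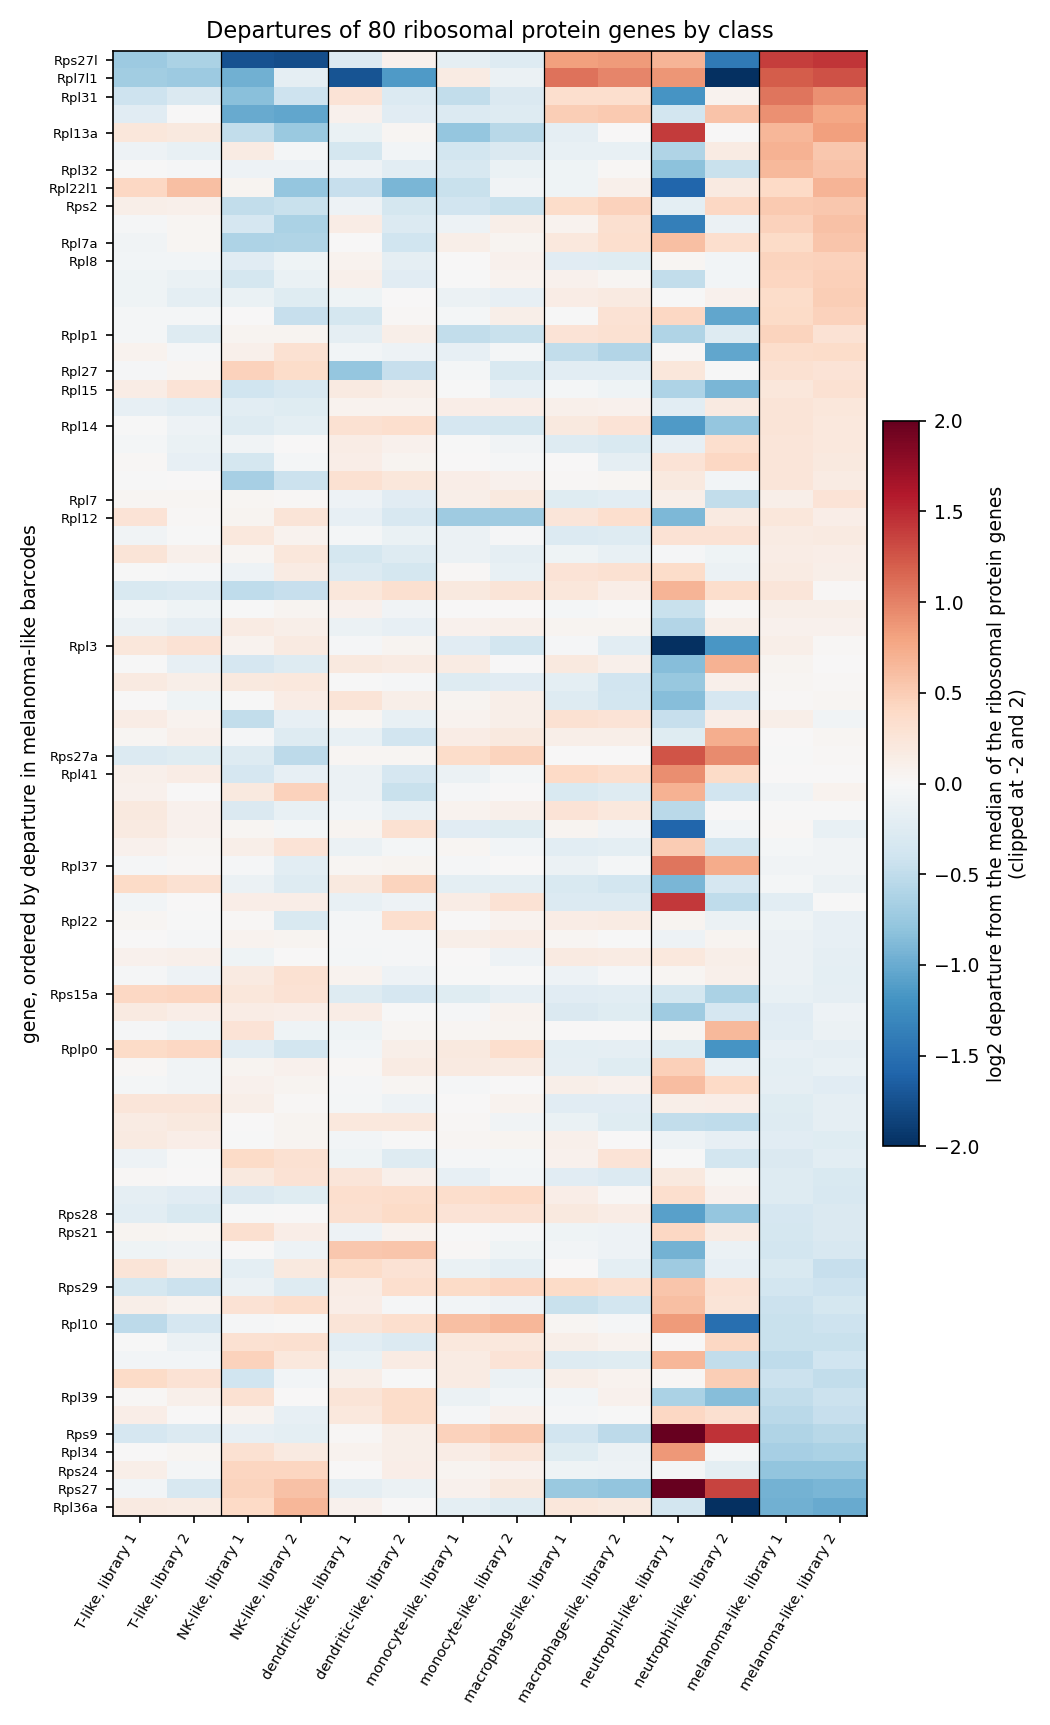
Departure of each of 80 ribosomal protein genes (rows, ordered by their values in melanoma-like barcodes) from the median of the family, on a log2 scale, in 7 classes and 2 libraries (columns). Genes named in the text are labelled, red is above and blue below the median; Rps27l and Rpl7l1 head the melanoma-like columns, Rps27 and Rpl36a close them, and Rps9 and Rps27 are the deepest red in neutrophil-like barcodes.

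In melanoma-like barcodes Rps27l and Rpl7l1 stood apart. Rps27l, a paralogue of Rps27 whose human counterpart is a target of p53, reached 865 and 1123 CPM there, against a mean of 309 and 417 CPM over the other classes. Its departure was 2.62 and 2.68. Rpl7l1, a paralogue of Rpl7, reached 138 and 145 CPM, with a departure of 2.32 and 2.41, which became 2.85 and 1.42 when barcodes were thinned to 500 UMIs. These 2 of 80 genes departed upwards and 0 downwards, where 28% of the 11509 genes tested lay at least 2-fold above the same median and 14.5% at least 2-fold below it. By the plain ratio the same 2 genes were called higher, against 29.5% of all genes, and 0 lower, against 14.2%.

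At 1.5-fold, Rpl31 and Rpl13a were among the genes that joined them above the median in melanoma-like barcodes, and Rps27, Rps24, Rpl36a and Rpl34 lay below it. That made 5 of 80 genes above and 4 below, where 39.6% of all genes lay above and 18.6% below; by the plain ratio 5 were higher, against 41.4%, and 3 lower, against 18.1%. Rpl31 had 1561 and 1926 CPM in melanoma-like barcodes and a departure of 2.102 and 1.89. On the low side, Rps27, a zinc-finger protein of the small subunit, had 903 and 1336 CPM in melanoma-like barcodes, with a departure of 0.520 and 0.531. Rps24 had 2470 and 2785 CPM (0.581 and 0.577), Rpl36a 458 and 515 CPM (0.512 and 0.495) and Rpl34 1603 and 1822 CPM (0.630 and 0.645). Rpl31 overlaps Tbc1d8 on the other strand and Rpl13a lies over several snoRNA genes and Gm45713 on its own strand, and the sources used here do not say whether counting used strand.

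Rps27l and Rps27 gave the widest shift between paralogues. Of the UMIs of the pair, Rps27l supplied 48.9% and 45.7% in melanoma-like barcodes and 39.7% and 37.8% in macrophage-like barcodes. It supplied 19.5% and 19.9% in dendritic-like, 17.8% and 14.4% in monocyte-like and 14.8% and 15.5% in T-like barcodes. NK-like barcodes were lower still, at 6.54% (35 of 535 UMIs, interval 4.60 to 8.98) and 5.31% (2.68 to 9.31), and B-like barcodes of library 1 lowest, at 2.18% (1.001 to 4.096); those of library 2 held 0 of 22, which allows up to 15.4%. Intervals of neighbours in this order do not separate dendritic-like from monocyte-like barcodes, or T-like from monocyte-like barcodes in library 2. Neutrophil-like barcodes held 8.20% and 3.45%, from 5 and 1 UMIs of Rps27l. Their wide intervals overlap those of every lymphoid class and of dendritic-like and monocyte-like barcodes. A near-identical copy, Rps27rt, was counted apart from Rps27, and reads could be split between them.

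**Figure D3:**
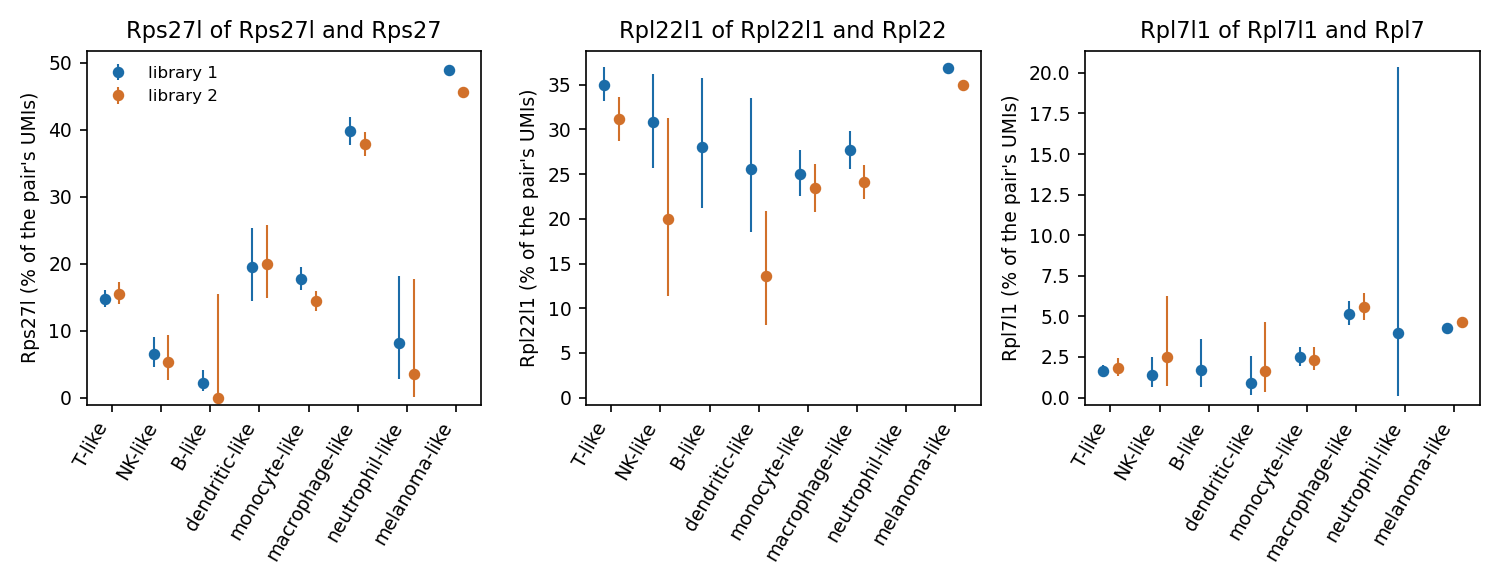
Share of a paralogue in the UMIs of its pair (percent, y axis) in each class, with exact 95% intervals, library 1 in blue and library 2 in orange; class and library combinations with under 20 UMIs in the pair are not drawn. Rps27l is near 40% in macrophage-like and above 45% in melanoma-like barcodes and under 20% elsewhere, Rpl22l1 changes less, and Rpl7l1 is highest in macrophage-like and melanoma-like barcodes.

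Rpl22l1 is the paralogue of Rpl22, which mice need for the development of αβ T cells. It supplied 35.0% and 31.1% of the pair's UMIs in T-like, 30.8% and 20.0% in NK-like, 25.5% and 13.6% in dendritic-like, 25.04% and 23.4% in monocyte-like, 27.7% and 24.1% in macrophage-like and 36.9% and 35.0% in melanoma-like barcodes. Its share was lower in library 2 in each of these classes. Rpl7l1 supplied 5.17% and 5.56% of the UMIs it shares with Rpl7 in macrophage-like barcodes, 4.27% and 4.67% in melanoma-like, 2.50% and 2.33% in monocyte-like and 1.61% and 1.81% in T-like barcodes. Rpl22l1 overlaps the antisense gene Gm33051 and Rpl7l1 the gene Gm26904. The remaining paralogues were nearly silent: Rpl39l had at most 5 UMIs in any class and library, Rpl3l at most 25, in melanoma-like barcodes of library 2, and Rpl10l none, which allows up to 0.0781 and 0.0498 CPM in melanoma-like barcodes. Pseudogene copies with 9 symbols held between 0% and 0.0818% of the family's UMIs in the 8 classes.

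T-like barcodes raised the family nearly as a block. By the plain ratio, 3 of 80 genes reached 2-fold above the other classes, where 5.76% of all genes did, and 0 were 2-fold lower, where 18.4% were. They were Rplp0, the core of the ribosomal stalk, with 8430 and 7731 CPM and ratios of 2.12 and 2.00, Rps15a with 10718 and 10795 CPM (2.18 and 2.03) and Rpl22l1 with 677 and 685 CPM (2.18 and 2.28). No gene departed from the family by 2-fold, where 1.98% of all genes lay above and 28.4% below. At 1.5-fold 2 of 80 genes lay below the family, Rps27l (0.602 and 0.645) and Rpl7l1 (0.619 and 0.604), where 41.2% of all genes did, and 0 above, against 3.94%. At 1.5-fold, the plain ratio put 40 of 80 genes higher in T-like barcodes, against 12.9% of all genes, and 0 lower, against 23.9%.

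NK-like barcodes had low Rps27l for their family level. It had 188 and 262 CPM and a departure of 0.299 and 0.294. In all, 2 of 80 genes departed downwards, where 38.6% of all genes lay 2-fold or more below; among 78 ribosomal protein genes with at least 20 UMIs expected, the count was again 2, against 40% of 452 genes. By the plain ratio Rps24 (6610 and 8336 CPM, ratios of 2.01 and 2.14), Rps27 (2681 and 4668 CPM, 2.02 and 2.39) and Rpl27 (1120 and 1072 CPM, 2.04 and 2.06) were called higher, 3 of 80 against 5.55% of all genes. Only Rps27l was called lower, against 30.8%. No gene departed upwards, against 2.29% at 2-fold and 4.13% at 1.5-fold, and at 1.5-fold Rpl7a (0.653 and 0.660) made 3 of 80 below, against 48%. At 1.5-fold 33 of 80 genes were higher by the plain ratio, against 10.5%, and 1 lower, against 35.8%. B-like barcodes, given as values, held 4507 and 6440 CPM of Rps27 and 9070 and 12295 CPM of Rps24, the highest of the 8 classes for both genes. In library 2 these came from 22 UMIs of Rps27 (interval 4036 to 9751 CPM) and 42 of Rps24 (8861 to 16619). Both intervals overlap those of NK-like barcodes in library 2 (4037 to 5369 and 7485 to 9257 CPM), so the order there is not settled.

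Monocyte-like and macrophage-like barcodes, both drawn from the lineage in which the Cre is active, differed in single genes. Neither had a 2-fold departure in either direction, where 5.93% of all genes lay above and 17.1% below in monocyte-like barcodes and 15.6% above and 8.64% below in macrophage-like barcodes. At 1.5-fold, monocyte-like barcodes had 1 gene above, Rpl10, which acts in the last steps of large-subunit assembly, at 1803 and 2169 CPM (1.51 and 1.59), where 11.6% of all genes lay above. They had 1 gene below, Rpl12, at 1750 and 1907 CPM (0.613 in both libraries), where 24.1% lay below. Macrophage-like barcodes had Rps27l at 491 and 639 CPM (1.76 and 1.81) and Rpl7l1 at 99.1 and 95.4 CPM (2.11 and 1.98) above, 2 of 80 against 29.2% of all genes, and Rps27 at 745 and 1049 CPM (0.601 and 0.579) below, 1 of 80 against 11.7%. By the plain ratio Rps27 was also called lower in macrophage-like barcodes (0.451 and 0.411), 1 of 80 against 12.3%, and 0 were called higher, against 7.97%; at 1.5-fold 23 of 80 were lower, against 18.4%, and 0 higher, against 15%. In monocyte-like barcodes 0 genes were called by the plain ratio, where 4.5% of all genes were called higher and 19.6% lower; at 1.5-fold 3 of 80 were lower, against 28.6%, and 0 higher, against 8.74%.

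Dendritic-like barcodes followed the family closely, with 78 of 80 genes within 1.5-fold of the median in both libraries. Rpl7l1 was below it, at 0.301 and 0.455, but from 3 UMIs in each library; 33.7% of all genes were 2-fold below and 3% above, and at 1.5-fold 40.5% below and 5.29% above, where Rpl7l1 was again the 1 gene called. No gene was called by the plain ratio, where 4.28% of all genes were called higher and 31.1% lower; at 1.5-fold 2 of 80 were higher, against 8.02%, and Rpl7l1 lower, 1 against 35.4%. With at least 20 UMIs expected, 0 of 78 genes departed downwards, against 20.5% of 575 genes.

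In neutrophil-like barcodes nearly the whole family was low, but not evenly. By the plain ratio 77 of 80 genes were called lower, against 64.1% of all genes, and 0 higher, against 4.04%. With at least 20 UMIs expected, 69 of 72 were called lower, against 97 of 131 genes (74%). Those 131 include the 72, so most of that background is the family itself. Of the 80, the 3 that were not called were Rps9, Rps27 and Rps27a. Rps9, a small-subunit protein that in yeast bears on the accuracy of decoding, had 2566 CPM (136 UMIs, interval 2153 to 3036) and 2763 CPM (47 UMIs, 2030 to 3674), against a mean of 3422 and 3867 CPM over the other classes. Its level was thus 0.750 and 0.714 times that of the others, where the median gene of the family was at 0.135 and 0.264, which gives a departure of 5.55 (4.66 to 6.57) and 2.71 (1.99 to 3.60).

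Rps27 stood at 1057 CPM (56 UMIs) and 1646 CPM (28 UMIs) in neutrophil-like barcodes, 0.662 and 0.671 times the other classes, with a departure of 4.90 and 2.54. These 2 of 80 genes departed upwards by 2-fold, where 14.2% of all genes did. Their UMIs were spread over barcodes: Rps9 was seen in 60 of 78 and 24 of 26 neutrophil-like barcodes with at most 6 and 7 UMIs in any, and Rps27 in 37 of 78 and 18 of 26 with at most 7 and 4. Both kept their 2-fold departure with melanoma RNA subtracted. Leaving out copied barcode sequences removed no neutrophil-like barcode and changed only the other classes, so that setting could say little about these 2 genes. No annotated gene overlaps Rps9 or Rps27.

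**Figure D4:**
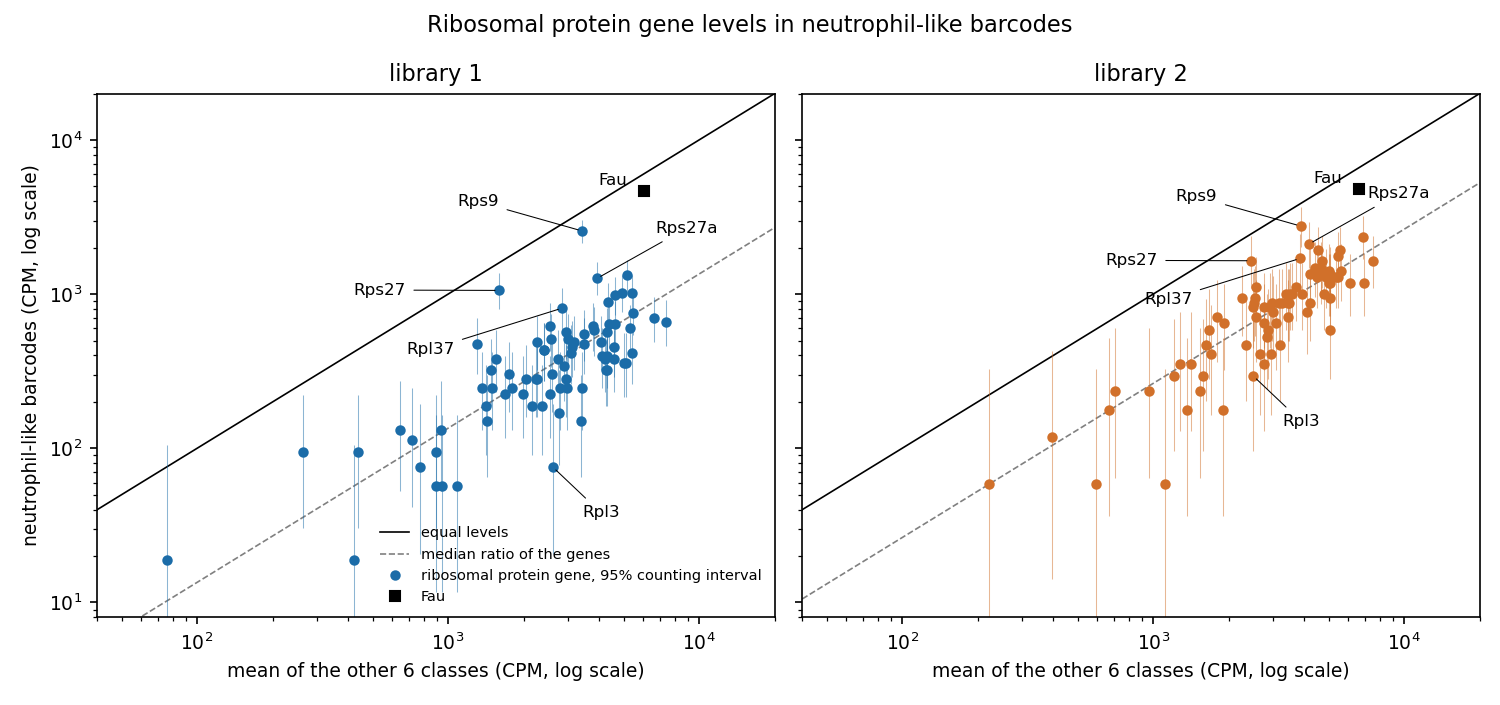
Level of each ribosomal protein gene in neutrophil-like barcodes (y axis, CPM, log scale) against the mean of the other 6 classes (x axis, CPM, log scale), in library 1 on the left and library 2 on the right, with 95% Poisson intervals; 1 gene with 0 UMIs in library 2 is not drawn. The solid line marks equal levels and the dashed line the median ratio, 0.135 and 0.264; Rps9, Rps27 and the related gene Fau lie nearest to the solid line and Rpl3 under the dashed one.

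At 1.5-fold, Rps27a, which encodes ubiquitin fused to a small-subunit protein, and Rpl37 joined them above the family in neutrophil-like barcodes. Rps27a had 1264 and 2116 CPM and a departure of 2.39 and 1.92, and Rpl37 had 811 and 1705 CPM and a departure of 2.11 and 1.68; the 4 genes above compare with 15.5% of all genes. At 1.5-fold the plain ratio called 78 of 80 genes lower, against 67.8%, and 0 higher, against 5.37%. Rpl3, which in yeast reaches towards the catalytic centre of the large subunit, was called 2-fold below from 4 and 5 UMIs (0.214 and 0.445, not called with no filter on barcodes or after thinning), 1 of 80 against 56.2% of all genes. Rpl14, Rpl15, Rpl39 and Rps28 were also below at 1.5-fold, from 3 to 13 UMIs each, which made 5 of 80 against 56.3%. Only 21 of the 80 genes had 20 UMIs expected in both libraries at the family's level, and 0 of them departed by 2-fold. Among all 32 such genes, these 21 included, 7 (21.9%) departed upwards and 0 downwards. Rps9 had 24.5 and 17.3 expected, and Rps27 had 11.4 and 11.01. Fau, which encodes small-subunit protein eS30 fused to a ubiquitin-like protein and falls outside the naming rule of the family, was at 4680 and 4820 CPM, 0.776 and 0.729 times the other classes.

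Within T-like barcodes, those with more UMIs of naive and memory markers than of effector markers (225 and 53 barcodes) had a higher share than those with more effector UMIs (384 and 297). The share was 35.8% and 37.1% in the naive group and 30.6% and 32.7% in the effector group, a ratio of 1.17 and 1.14, which does not reach the rule for shares. Ratios above 1 were seen for 59 of 80 genes in library 1 and 63 of 79 in library 2, counting genes with at least 50 UMIs over both groups. No count over all genes stands beside these, so they are not read as particular to the family. The groups are ranges of a marker score and not types: 58 and 36 naive and 45 and 52 effector barcodes were 1 UMI from a tie, and 56 and 49 tied barcodes were left out. Median UMIs were 842 and 752 in the naive group and 1652 and 1297 in the effector group; thinned to 500 UMIs per barcode, the share ratio was 1.19 and 1.16.

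Rps27 was higher and its paralogue Rps27l lower in the naive group than in the effector group. Rps27l had 135 and 299 CPM in the naive group (30 and 13 UMIs), against 456 and 544 CPM in the effector group (447 and 288 UMIs), a ratio of 0.296 and 0.549. Rps27 had 4125 and 4571 CPM in the naive group, against 1706 and 2551 CPM in the effector group, a ratio of 2.42 and 1.79. Rps24 had 9367 and 9279 CPM in the naive group, against 5128 and 5858 CPM in the effector group, a ratio of 1.83 and 1.58. Rps29 (1.699 and 1.51) and Rps21 (1.60 and 1.49) followed. Beside Rps27l on the lower side, Rps2 had 3073 and 2641 CPM in the naive group, against 4319 and 3481 CPM in the effector group (0.712 and 0.759), and Rpl41 (0.733 and 0.771) was also lower in both libraries. These genes were chosen after their values were seen.

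**Figure D5:**
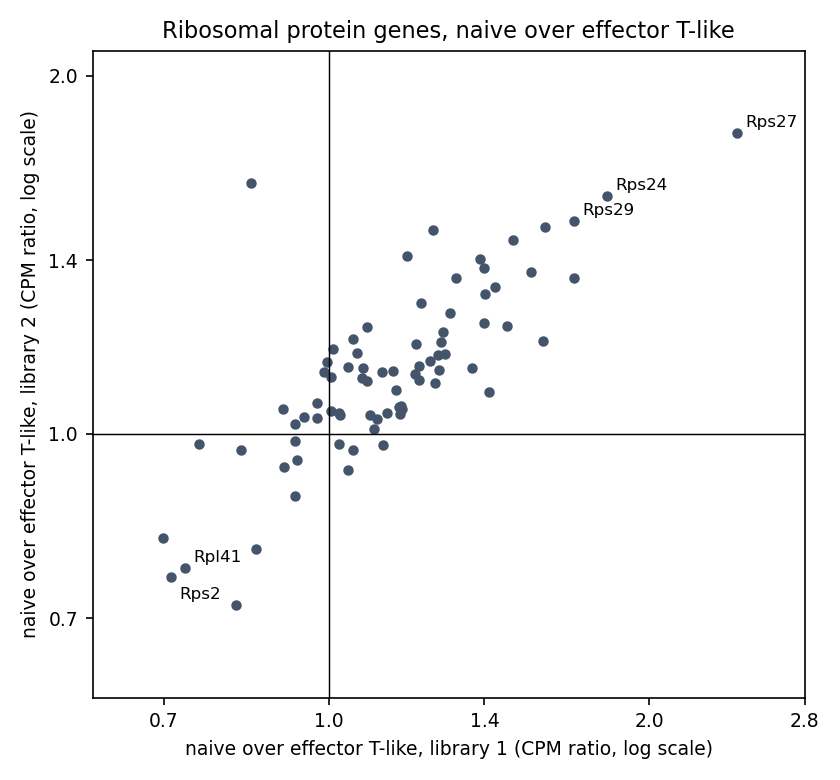
Ratio of CPM in naive over effector T-like barcodes in library 1 (x axis) and library 2 (y axis), both on log scales, for the 78 ribosomal protein genes with at least 20 UMIs in each group and library; Rps27l and Rpl7l1, with 13 and 3 UMIs in the naive group of library 2, are not drawn. Rps27 and Rps24 lie at the upper right, and Rps2 and Rpl41 at the lower left; only some genes named in the text are labelled.

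Among melanoma-like barcodes of 5000 or more UMIs, those with at least 10 UMIs of mitosis genes per 10000 (1015 and 2194 barcodes) held a share of 21.3% and 22.8%, against 22.4% and 23.96% in the others (868 and 2274). The ratio was 0.9494 and 0.9499, with 8 and 11 of 80 genes above 1, again without a count over all genes beside them. Rpl7l1 ran the other way from the family, with 154 and 161 CPM in mitotic barcodes, against 116 and 127 CPM in the others, a ratio of 1.33 and 1.27. Rpl22l1 had the lowest ratio, 0.783 and 0.851, with 438 and 492 CPM in mitotic and 560 and 578 CPM in the other barcodes. Both genes were chosen after their values were seen.

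Lists of related genes were read by the plain ratio. The TOP list holds 20 genes of translation factors and related messages under the same control, of which 19 were found and tested. In neutrophil-like barcodes 15 of 19 were called lower and 0 higher, where 64.1% of all genes were called lower and 4.04% higher. The list's median ratio was 0.138 and 0.297, against a median of 0 over all 11509 genes in both libraries. Tpt1 was among those called lower, at 0.417 and 0.401. The 4 not called were Fau, Pabpc1 (the poly(A)-binding protein, 0.287 and 1.02 from 5 and 6 UMIs), Hnrnpa1 and Eif3e, the last pair with at most 3 UMIs in a library. The lowest, Eif3h, Eif4b and Eef1d, had at most 3 UMIs in a library. Median ratios of the list were 1.61 and 1.47 in T-like and 0.778 and 0.746 in macrophage-like barcodes, with 0 genes called in either class, where 5.76% of all genes were called higher and 18.4% lower in T-like barcodes and 7.97% higher and 12.3% lower in macrophage-like barcodes.

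In melanoma-like barcodes 2 of the 19 TOP genes were called higher, Npm1, the nucleolar protein nucleophosmin (3.15 and 2.74), and Hnrnpa1 (2.12 and 2.06), and 1 lower, Fau (0.458 and 0.480), where 29.5% of all genes were called higher and 14.2% lower. Eif4b (1.76 and 2.32), Tpt1 (0.588 and 0.596) and Eif3f (0.750 and 0.882) were not called. The list's median ratio was 1.43 and 1.32, against 1.47 and 1.51 over all genes. Of 40 genes of ribosome biogenesis, 22 were called higher in melanoma-like barcodes and 0 lower, against the same shares of all genes, and the median was 2.26 and 2.44. Polr1c, a subunit of RNA polymerases I and III (4.26 and 4.94), Tsr1 (4.14 and 4.27) and Wdr12 (2.73 and 4.66) led, and Ubtf (1.17 and 1.08), Ddx21 (1.398 and 1.18) and Noc2l (1.30 and 1.48) were last. The ribosomal proteins themselves thus had a median of 1.07 and 1.004 where the biogenesis list had more than 2.

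Mitochondrial ribosomal proteins, which belong to the separate ribosome of that organelle, were called higher in melanoma-like barcodes for 34 of 77 genes and lower for 0, where 29.5% of all genes were called higher and 14.2% lower. Their median ratio was 2.23 and 2.08, against 1.47 and 1.51 over all genes. Mrps25 (4.44 and 3.44), Mrps31 (3.26 and 5.84) and Mrps27 (3.65 and 5.24) led, and Mrpl52 (0.728 and 0.648), Mrpl33 (0.763 and 0.852) and Mrps16 (0.923 and 0.854) were last. In neutrophil-like barcodes 34 of 40 biogenesis genes and 47 of 77 mitochondrial ribosomal proteins were called lower, against 64.1% of all genes, and the median ratio was 0 for both lists and for all genes. Of 9 tested targets of p53, listed because Rps27l has that role in human cells, 3 were called higher in melanoma-like barcodes and 0 lower, against 29.5% and 14.2% of all genes. They were Phlda3 (32.1 and 3.901), Zmat3 (3.80 and 6.44) and Aen (2.71 and 2.04), while Sesn2 (0.614 and 0.440), Mdm2 (0.636 and 0.842) and Cdkn1a (0.655 and 0.989) were not called. The size of the Phlda3 ratios rests on few UMIs in the other classes compared. Each held at most 13 in library 1, and in library 2 only 2 neutrophil-like UMIs stood for 118 CPM. In monocyte-like barcodes Mdm2 (2.37 and 2.25) and Cdkn1a (3.74 and 2.19) were called higher and Phlda3 (0.243 and 0.213) lower, 2 and 1 of 9 genes, where 4.5% of all genes were called higher and 19.6% lower.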

How the data were processed

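The data are droplet 3′ single-cell RNA sequencing (10x Genomics Chromium, per the labels' protocols) of 2 samples, 1 per genotype. The authors deposited raw UMI counts for each gene in each barcode. Cell Ranger and the mm10 build are named, per the submitters' processing notes; the software version is 3.0.2, per the file headers. Strand setting and depth equalisation are not given in the sources used here. The members, gene lists, markers and tests were chosen with earlier results of these data known, and the scoring that turns markers into classes was set after the files were read.

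Scrublet (scanpy 1.11.5), run per library, had not worked at the threshold it set itself, which marked 1 barcode per library, so the top 6% of scores were dropped instead, with ties kept. A barcode joined the class whose marker UMIs per 10000, divided by the typical level of barcodes with at least 3 markers of that class, were highest, with at least 2 markers, a scaled score of at least 0.2 and a runner-up of at most 0.5 of it; 805 and 771 barcodes joined none, and held 21.1% and 24.3% ribosomal protein UMIs. For each class in each library, UMIs were added up and expressed as CPM. No p-value was computed, because each genotype is 1 library and cells are not replicates; calls are rules of size met in both libraries, with exact binomial or Poisson intervals at 95%, for counting error only. PCR copies are merged by UMI. A gene at 0 is bounded by 3 counts. Counts called among all genes in shallow classes include many genes at 0, so they are also given for genes with at least 20 UMIs expected. Named genes are all 2-fold departures, the paralogue pairs, the 3 members with most and fewest UMIs and the 3 highest and lowest of each list described; Rps4l was not matched. Genes at 1.5-fold, genes of plain calls and genes of the T-like and mitotic groups were named after their values were seen. Gas5 of the TOP list was not found. Some results for single genes are not reported here. Gene overlaps come from GENCODE M21 on GRCm38, matched by gene ID. The calling code was tested on simulated data. Python 3.11.15, numpy 2.4.6, scipy 1.17.1, pandas 2.3.3 and matplotlib 3.10.9 were used. The alternatives tried were no filter on barcodes or at least 1000 UMIs, keeping doublets, a stricter margin between classes (0.25), means over barcodes, thinning to 500 UMIs, copies left out, melanoma RNA subtracted, mitochondrial and Malat1 UMIs left out, 10 UMIs per gene and a fold of 1.5. Comparisons at 500 to 1500 UMIs, without the 10 most abundant other genes, with 20 UMIs expected and with stricter mitotic groups were added after seeing the data.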

Additional observations from a re-analysis of the deposited data

How the results depend on the processing

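No paired analysis was possible because each genotype is 1 library. For the same reason no replicate could be left out. Ratios here are geometric means of the 2 libraries. Of the share ratios and counts of calls, 112 kept their side of the threshold or stayed within 1.5 times of the value reported, 18 counts did not and 5 ratios were no longer called. At a fold of 1.5, the share ratios to melanoma-like barcodes of T-like (1.43), NK-like (1.39) and macrophage-like barcodes (0.729) were no longer called, 80 gene and class pairs were called higher by the plain ratio (8 at 2-fold), and 12 departed upwards and 17 downwards (4 each at 2-fold). The NK-like share ratio was 1.34 both as a mean over barcodes (1.20 and 1.51 in the libraries) and thinned to 500 UMIs, and not called in either; 4 pairs were then called higher by the plain ratio. At 1000 or more UMIs the neutrophil-like and NK-like classes fell under 20 barcodes, and 3 pairs were called higher and 3 lower by the plain ratio (79 lower at 500 UMIs), with 2 departing upwards and 1 downwards. A stricter margin between classes took out the neutrophil-like class and gave 2 called higher and 7 lower, with 2 departing upwards and 1 downwards. Downward departures numbered 8 with 10 UMIs per gene, which lets in shallower genes, and 2 with no filter on barcodes. Upward departures numbered 7 with melanoma RNA subtracted, where Rps27a in neutrophil-like, Rpl31 in melanoma-like and Rpl7l1 in macrophage-like barcodes joined the 4. With at least 20 UMIs expected, 2 departed upwards, Rps27l and Rpl7l1 in melanoma-like barcodes, and 2 downwards, both in NK-like barcodes, Rps27l among them. Over the alternatives, single departures kept their call in 54 cases, were no longer called in 9 and were reversed in 1. The reversed case was Rpl7l1 in dendritic-like barcodes, which turned to 1.32 (0.370 as reported) after thinning, from few UMIs. Rpl7l1 in this class was also not called with the stricter margin or as a mean over barcodes. Where no cause is given, the cause was not tested. Depth limits the neutrophil-like class most, with 52993 and 17012 UMIs in all.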
